A study of Homo sapiens with 9 samples.

Results

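The arrays of OVISE cells treated with the EZH2 inhibitor GSK126 and of their vehicle controls made up 6 of the 9 samples of the study, and they were chosen by sample title. OVISE is an established cell line of clear cell ovarian carcinoma with mutated ARID1A, whose protein helps the SWI/SNF nucleosome remodelling machine to bind DNA. All groups grew as 3-dimensional cultures in Matrigel, an extract rich in basement membrane proteins. The 3 control arrays came from cells given the vehicle DMSO and the 3 treated arrays from cells given 5 µM GSK126. In the remaining 3 samples 1 µg/mL doxycycline switched on wild-type ARID1A. The labels put replicates 1, 2 and 3 of every group in batches 1, 2 and 3, so the groups were paired by batch. They give no length of treatment, and they do not say whether the DMSO and GSK126 cells also carried the inducible construct or whether replicates were separate cultures. The p-values therefore rest on sample-to-sample spread in 1 cell line that may be only technical.

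EZH2 is the catalytic subunit of Polycomb repressive complex 2 (PRC2), which methylates histone H3 at lysine 27, a mark that keeps genes such as developmental regulators silent. EED and SUZ12 are core partners that the enzyme needs, and the paralogue EZH1 can take its place. GSK126 competes with the methyl donor at the active site of EZH2, so that the mark is lost as chromatin is copied and turned over, and genes held silent by it can become active. The comparison with DMSO asks which transcripts differ when EZH2 is inhibited in cells with mutated ARID1A.

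Expression is given as normalised log2 intensity, and every difference is GSK126 minus DMSO in log2 units, so that 1 unit is a 2-fold change. Between 21570 and 22517 of 47323 probes per DMSO array and between 21799 and 22111 per GSK126 array were above background (detection p below 0.05), and 12698 genes had a probe above background on at least 3 of the 9 arrays. Precision is limited by having 3 arrays a group: the standard error (SE) of a difference had a median of 0.12, and the median 95% interval reached 0.28 to either side. Of 10 markers of carcinoma and clear cell identity, 8 were tested and all 8 were above background on all 6 arrays, among them the epithelial adhesion molecule EPCAM, the Müllerian transcription factor PAX8 and the keratin KRT7. Their summed level ran from 17.82 to 17.87 (log2) in DMSO and from 17.81 to 17.85 under GSK126. No KRT18 probe was kept. Markers of other cell types were mostly below background: 3 of 8 leukocyte markers, 1 of 5 endothelial markers and 0 of 6 fibroblast markers had a kept probe. Of these only CD68 was above background on all 6 arrays, the endothelial VWF was so on 0 of 6, CD14 went from 2 of 3 arrays in DMSO to 3 of 3 under GSK126 and LYZ from 1 of 3 to 3 of 3. Their part in the results below was not tested.

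The transcript of EZH2 itself was at 10.37 in DMSO and 10.09 under GSK126. The drug blocks the enzyme and not its gene, so this level is no check of the treatment. Its difference was −0.28 (SE 0.15, 95% interval −0.61 to 0.05, limma adjusted p = 0.607). The batches gave −0.24, −0.22 and −0.37, while the levels of the groups overlapped, and its 2 other probes gave −0.30 and −0.26. EZH1 differed by 0.12 and EED by −0.09, and SUZ12 stood at 14.21 in both groups. Of 13 tested subunits of PRC2, 10 were lower and 3 higher, with a median difference of −0.09, and none passed the test. The largest positive value among them belonged to PHF1, an accessory subunit that binds methylated histone H3, at 0.23 with groups that did not overlap. A second PHF1 probe gave 0.08. Of the subunits of PRC1, the complex that ubiquitinates histone H2A, 17 of 20 were tested and the median was −0.04. PCGF5, a core subunit of 1 form of PRC1, was at 8.98 in DMSO and 8.38 under GSK126, a difference of −0.60 (SE 0.16, limma adjusted p = 0.373) that was negative in all 3 batches.

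GSK126 was followed by small differences. Of 12698 genes tested, 0 passed an adjusted p of 0.05 (percent called 0) in limma's linear model of all 9 arrays, where the lowest adjusted p was 0.145. With batch as a block the count was also 0 and the lowest adjusted p 0.0642. At an unadjusted p below 0.05 there were 1185 genes, 585 higher (4.61%) and 600 lower (4.73%), and with the block there were 1741. When arrays were scaled to their medians instead of quantile normalised, that split became 1007 higher and 284 lower, since the median of all genes moved by 0.05. The 5th and 95th percentiles of all differences were −0.31 and 0.31. By fitted difference MME, WDR72, SNAP91 and SLC6A14 were the 4 genes past 2-fold on the positive side. YWHAH-AS1 was the 1 gene past it on the negative side, but its probe was above background on no GSK126 array and gives only a bound, which was lower than 2-fold. For 12372 genes (97.4%) the 95% interval of the difference lay wholly within 2-fold. The 3 batches gave related differences across genes, with correlations of 0.234, 0.264 and 0.226 between batches, each pair sharing no array. Genes are not independent replicates, and these values only describe the arrays.

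**Figure D1:**
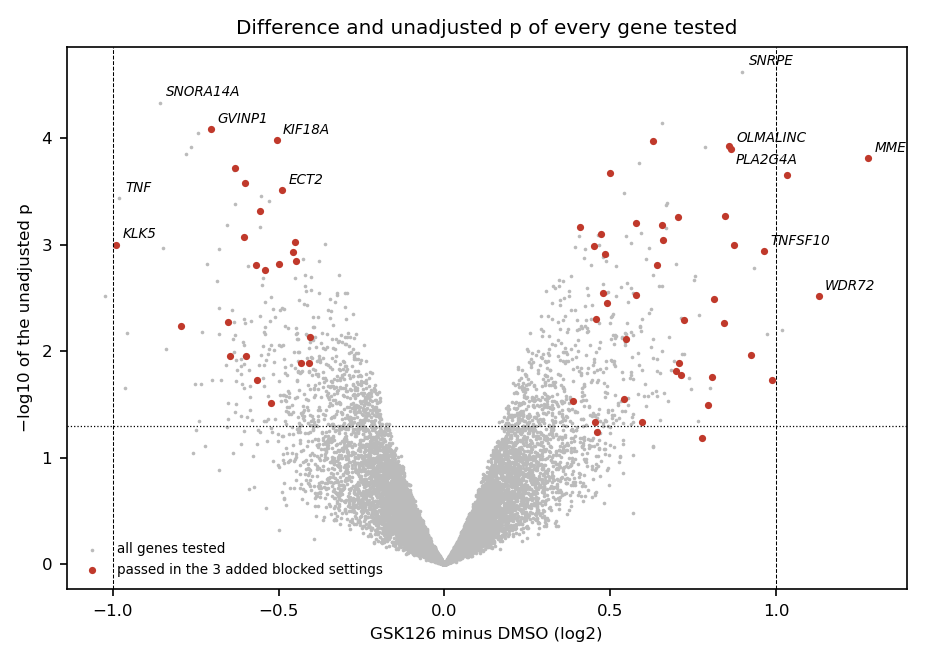
Each point is 1 of 12698 genes, with the difference GSK126 minus DMSO (log2) across and the −log10 of the unadjusted limma p upwards; the dotted line marks 0.05, the dashed lines 2-fold. Red points are the 63 genes that passed in 3 blocked settings added after the data were seen; most genes lie within 0.31 of 0, and only 5 lie past a dashed line.

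MME encodes neprilysin, a membrane metalloprotease that cleaves small peptides. Its levels were 6.66, 6.92 and 6.69 on the DMSO arrays and 7.94, 7.70 and 8.47 on the GSK126 arrays of batches 1 to 3. Every treated array was above every control, and 2 of 3 DMSO arrays were above background. The difference of 1.28 (SE 0.21, 95% interval 0.81 to 1.75) was the largest measured and had a limma adjusted p of 0.151.

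TNFSF10 encodes TRAIL, a ligand that triggers apoptosis through death receptors. It read 10.29, 10.58 and 10.62 in DMSO against 11.05, 11.47 and 11.86 under GSK126, a difference of 0.96 (SE 0.21, limma adjusted p = 0.253). In each batch the treated array was the higher one, by 0.76, 0.90 and 1.24. TNF, a related cytokine, differed the other way, with 7.66, 7.86 and 7.60 in DMSO and 7.06, 6.84 and 6.27 under GSK126, where 2 of 3 arrays were above background. Its difference of −0.98 (SE 0.18) did not pass (limma adjusted p = 0.2), and the groups did not overlap. Of 22 tested TNF ligands and death receptors, 11 were higher and 11 lower, with a median of 0.01. Lymphotoxin alpha (LTA) was at 0.25 and TNFSF14 at −0.23.

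A set of 3 genes of prostaglandin metabolism was picked after their values were seen, and no other member of the pathway was examined. PLA2G4A, the phospholipase that frees arachidonic acid from membranes, was at 9.26, 9.42 and 9.65 in DMSO and at 10.21, 10.31 and 10.40 under GSK126. All 3 treated arrays lay above all controls, and the difference of 0.86 (SE 0.14, 95% interval 0.55 to 1.16) had the lowest limma adjusted p of any gene, 0.145, shared with others. PTGS2, the inducible cyclooxygenase that turns arachidonic acid into prostaglandin H2, was at 12.24, 12.22 and 12.13 in DMSO and 13.17, 12.83 and 12.75 under GSK126, a difference of 0.72 (SE 0.20, limma adjusted p = 0.373). HPGD, the enzyme that inactivates prostaglandins, went from 9.88, 9.70 and 9.94 to 10.60, 10.27 and 10.63, a difference of 0.66 (SE 0.14, limma adjusted p = 0.251). All 3 genes were above background on all 6 arrays, and in none of them did the groups overlap.

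Among the other large positive differences, FGB, the beta chain of fibrinogen, was at 8.80, 9.33 and 9.29 in DMSO and 10.08, 9.98 and 9.97 under GSK126. The long non-coding RNA OLMALINC had the lowest adjusted p with the block (0.0642) and read 8.78, 8.91 and 9.11 against 9.64, 9.70 and 10.05. Its second probe gave a smaller difference, 0.23 in place of 0.86. SNAP91, which takes part in clathrin-coated vesicle formation, was at 6.84 in DMSO, above background on 1 of 3 arrays there, and at 7.87 under GSK126. WDR72, a gene of enamel formation, differed by 1.13 from a DMSO level above background on 1 of 3 arrays. The amino acid transporter SLC6A14 (1.02, above background on 2 of 3 DMSO arrays), the growth hormone receptor GHR (0.97), pepsinogen C (PGC, 0.93, above background on 1 of 3 DMSO arrays), the BMP and Wnt antagonist SOSTDC1 (0.85), the epidermal protein filaggrin (FLG, 0.84) and the lysosomal glycoprotein GPNMB (0.81) followed. MME, TNFSF10, PLA2G4A and the genes from FGB to GPNMB, with SNRPE and GCOM1, were the 15 largest positive fitted differences among genes with 1 sign in all 3 batches, an unadjusted p below 0.01 and signal above background on every GSK126 array, and 8 of them were above background on all 6 arrays. Their adjusted p-values, with those of the 15 largest negative ones, lay between 0.145 and 0.408 (limma).

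The 15 largest negative differences, chosen the same way with the DMSO arrays as the brighter group, came from dimmer probes. Only 3 of 15 (TRIM59, CEACAM6 and GVINP1) were above background on all 6 arrays. CEACAM6, an adhesion glycoprotein of epithelial surfaces, was at 12.83, 12.33 and 12.60 in DMSO and 11.66, 11.46 and 12.27 under GSK126. Every treated array was below every control, and the difference was −0.79 (SE 0.22, limma adjusted p = 0.386). KLK5, a secreted serine protease, was at 8.21, 7.44 and 7.89 in DMSO and 6.94, 6.61 and 7.02 under GSK126, a difference of −0.99 (SE 0.21). It was above background on 2 of 3 GSK126 arrays, and its second probe gave −0.48. The ubiquitin ligase TRIM59 differed by −0.84 and the pseudogene GVINP1 by −0.70. SNORD46 (−0.78), MFNG, a glycosyltransferase that modifies Notch (−0.73), and RFPL1 (−0.76) were above background on all DMSO arrays and on 1, 2 and 2 of 3 GSK126 arrays. AP5B1 (−0.96), COXFA4L3 (−0.85), SLED1 (−0.74) and C19orf38 (−0.72) were likewise below background on at least 1 GSK126 array.

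**Figure D2:**
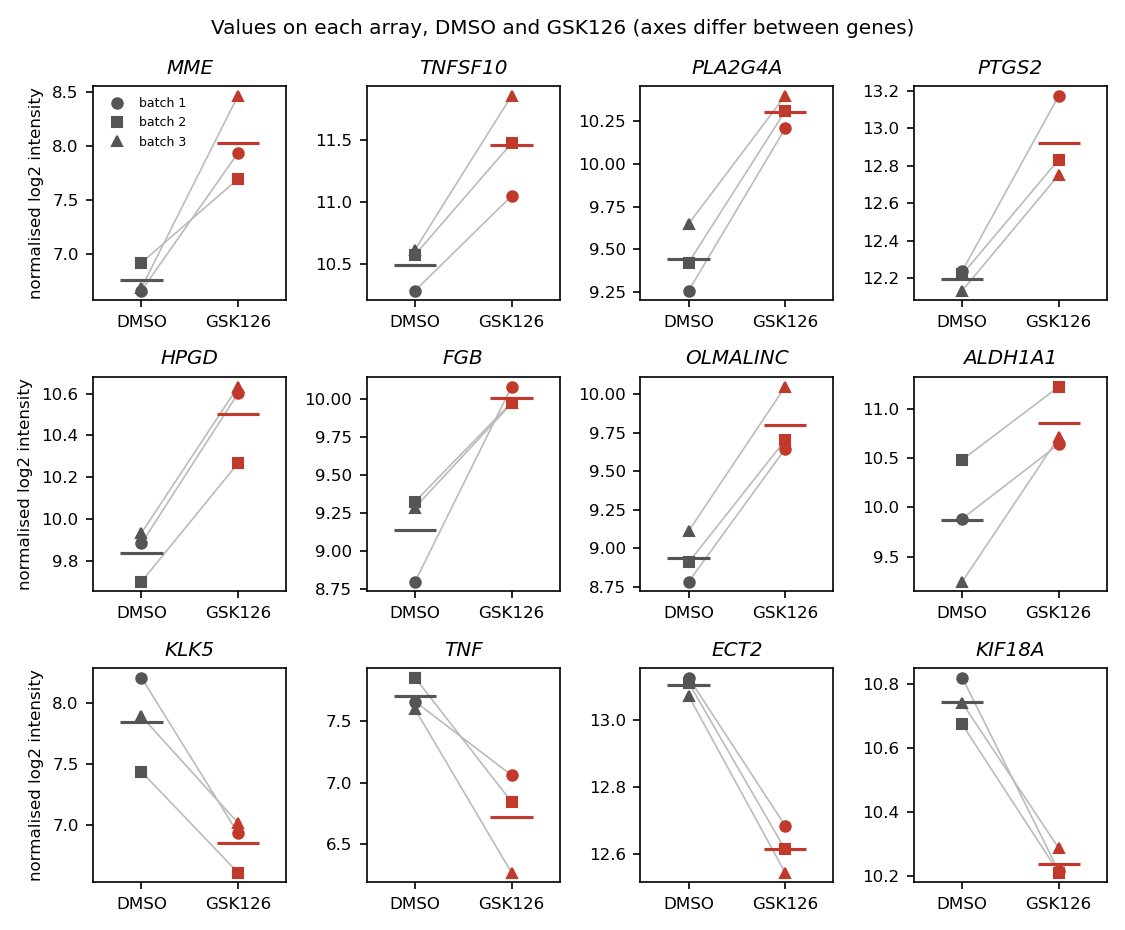
Normalised log2 intensity of 12 genes on the 3 DMSO (grey) and 3 GSK126 (red) arrays; symbols mark batches, grey lines join arrays of 1 batch, horizontal bars are group means, and axes differ between genes. In the first 8 genes each GSK126 array lies above its batch's DMSO array, in KLK5, TNF, ECT2 and KIF18A below it.

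A probe that was above background on all arrays of 1 group and on none of the other gives only a bound. In all 24 genes (0.189%) went from 0 of 3 DMSO arrays to 3 of 3 GSK126 arrays, and 14 (0.11%) went the other way. The 24 were among 141 tested genes not above background on any DMSO array. Probes were kept if above background on at least 3 arrays over all groups. A gene dark in DMSO was therefore tested only if GSK126 or ARID1A arrays showed it, and a gene dark under GSK126 only through the other groups. The counts and the adjusted p-values below describe genes admitted in this way, and nothing is read from the split. The bounds were low. TEPSIN, an accessory protein of a clathrin-independent coat, was at least 1.41-fold higher under GSK126, ACTG1P4 at least 1.37-fold, TRAF1, an adaptor of TNF receptors, and the DNA end-joining factor XRCC4 at least 1.33-fold each, and SNRPE at least 1.31-fold. In the other direction SNORA14A was at least 1.57-fold higher in DMSO, YWHAH-AS1 at least 1.52-fold, SNORD49A at least 1.28-fold, the Wnt receptor FZD10 at least 1.25-fold and the cancer-testis antigen MAGEA11 at least 1.16-fold. A second MAGEA11 probe, above background on 2 of 3 DMSO arrays and 1 of 3 GSK126 arrays, gave a difference of −0.04. Each bound sets the mean of the bright group against the lowest signal above background and makes no allowance for spread. The limma adjusted p of these fitted differences ran from 0.145 (SNRPE, SNORA14A) to 0.497 (SNORD49A). CNR1, the cannabinoid receptor and a gene of the list of reported EZH2-repressed genes, also switched, at least 1.24-fold higher under GSK126 (limma adjusted p = 0.305).

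Whether genes passed depended on the normalisation and on how the spread between arrays was estimated. In 3 settings that kept batch as a block and treated dim probes differently from the main fit, all chosen after the data were seen, genes passed an adjusted p of 0.05. The first 2 below are nearly the same processing, since the value table was read as quantile normalised without background correction. Passing in both is therefore not separate agreement. The block with the authors' value table gave 41 higher (0.323%) and 24 lower (0.189%) genes, the block with quantile normalisation of uncorrected intensities gave 43 higher (0.339%) and 27 lower (0.213%), and the block with a variance that follows intensity gave 73 higher (0.575%) and 56 lower (0.441%). The same block with median scaling gave 0 genes, and 1 with a larger offset or with only genes detected on all 6 arrays. In all 3 settings 63 genes passed, 40 higher (0.315%) and 23 lower (0.181%), with differences of 0.39 to 1.28 in size in the main fit. Their differences below are also from the main fit. With the block and the value table, dim genes had smaller values. MME was at 0.55 there in place of 1.28, WDR72 at 0.49 in place of 1.13, SNAP91 at 0.42 in place of 1.03 and KLK5 at −0.41 in place of −0.99. All had 1 sign in all 3 batches, as 19.3% of all genes had positive and 20.3% negative, and 59 were above background on all 6 arrays. The groups did not overlap in 52, against 7.51% of all genes with GSK126 higher and 7.7% lower, but passing on the same arrays favours such genes and nothing is read from it. These counts rested on all 3 batches: without batch 1, 2 or 3 the value table with the block gave 6, 0 and 5 genes, and the variance trend with the block 6, 0 and 41. Of 25 further probes of 18 of these genes, 21 had the sign of the probe used. OLMALINC, PLA2G4A and FLG had the lowest adjusted p with the authors' value table, 0.00672 each, and TNFSF10, ALDH1A1 and the potassium channel gene KCNQ3 followed at 0.0112.

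The 40 higher genes included secreted and redox proteins, grouped here after their values were seen. ALDH1A1, which oxidises retinaldehyde, was at 9.89, 10.48 and 9.25 in DMSO and 10.64, 11.23 and 10.71 under GSK126, higher in each batch by 0.76, 0.74 and 1.47. The difference was 0.99 (SE 0.35), and its second probe gave 1.11. GPX3, the secreted glutathione peroxidase, was at 12.56 in DMSO and 13.11 under GSK126, the selenium transport protein SELENOP at 11.27 and 11.85, and ceruloplasmin (CP), the copper-carrying ferroxidase, at 10.24 and 10.90. TSC22D3, a glucocorticoid-induced leucine zipper gene, read 13.42, 13.46 and 13.44 in DMSO against 14.06, 13.93 and 13.82, a difference of 0.50 (SE 0.08, limma adjusted p = 0.157), with 0.69 and 0.61 on its other probes. The chemokine receptor CXCR4 was at 9.40, 8.64 and 9.65 against 10.40, 9.32 and 10.30. Its groups overlapped while each batch gave a positive difference, and the limma adjusted p of 0.569 fell to 0.11 with the block. KMO of the kynurenine pathway (0.92), the glucose transporter SLC2A12 (0.58), the calcineurin inhibitor RCAN2 (0.54) and the actin regulator EPS8 (0.64) passed in the same settings.

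The 23 lower genes included several that copy, repair or separate chromosomes. KIF18A, a kinesin that aligns chromosomes at metaphase, was at 10.82, 10.67 and 10.74 in DMSO and 10.22, 10.21 and 10.29 under GSK126, a difference of −0.51 (SE 0.08, 95% interval −0.68 to −0.33). All treated arrays lay below all controls, and the limma adjusted p was 0.145. E2F7, a repressor of cell cycle genes, differed by −0.65, the recombination motor RAD54L by −0.65, the cohesin regulator PDS5B by −0.63, the kinetochore protein KNTC1 by −0.57 and the de novo DNA methyltransferase DNMT3B by −0.40. For PDS5B a second probe gave −0.14, and for DNMT3B the others gave −0.12 and −0.33. KCNQ3 differed by −0.60 on the probe used and by 0.04 on a dimmer one. The osmotic stress factor NFAT5 (−0.56) and the adenylate cyclase ADCY3 (−0.52) also passed there.

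Nearly all mitotic genes had lower mean levels under GSK126, and none passed the test. Of 45 tested members of the G2/M list (46 listed), 44 were below 0 and 1 above, against 50.7% of all genes tested below 0, and their median difference was −0.29 beside −0.00 over all genes. The batches gave medians of −0.45, −0.13 and −0.28. Without GSK126 replicate 2 the median was −0.46, and with the block and the value table and without batch 1 it was −0.17. The 7 members whose groups did not overlap were all lower under GSK126 (15.6%, against 7.7% of all genes), and 7 had an unadjusted p below 0.05. ECT2, the exchange factor that starts cytokinesis, was at 13.13, 13.11 and 13.07 in DMSO and 12.69, 12.62 and 12.55 under GSK126. The 2 groups were narrow and apart, and the difference was −0.49 (SE 0.09, limma adjusted p = 0.195). TOP2A, the topoisomerase that untangles sister chromatids, was at 14.77, 14.78 and 14.59 against 14.27, 14.46 and 14.20, a difference of −0.41 (SE 0.13). PLK1, a kinase that drives mitotic entry, was at 10.09, 10.07 and 9.59 against 9.36, 9.68 and 9.01. Its groups overlapped, while each batch gave a lower value under GSK126. These 3 passed in the 3 added blocked settings. The kinesin KIF11 (−0.53), the condensin subunit SMC4 (−0.39), the kinesin KIF23 (−0.37) and the centriole kinase PLK4 (−0.31) also had groups that did not overlap. The proliferation antigen MKI67 was at −0.39 with an interval that held 0. Its value ran from −0.76 without GSK126 replicate 2 to −0.09 with the block and the value table and without batch 3.

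The DNA replication list showed the same direction with smaller values. Of 45 tested members (48 listed) 42 were below 0, the median was −0.22, and the batch medians were −0.26, −0.14 and −0.22. The groups did not overlap in 17 lower genes (37.8%, against 7.7% of all genes) and in 2 higher ones. The helicase cofactor CDC45 was at 11.95, 12.01 and 11.99 in DMSO and 11.29, 11.61 and 11.49 under GSK126, and MCM10 at 10.83, 10.64 and 10.64 against 10.14, 10.24 and 10.10. In both genes all treated arrays lay below all controls, and the differences were −0.52 and −0.54 (limma adjusted p = 0.377 and 0.386), and both passed with the block and the variance trend (adjusted p = 0.0434), but not in the other added settings. UHRF1, which recruits maintenance DNA methylation, differed by −0.41, ribonucleotide reductase RRM2 by −0.31 and the polymerase subunit POLA1 by −0.28. The mean of all kept POLA1 probes had the opposite sign, 0.25. The exceptions were the primase subunit PRIM2 at 0.59 and the transcription factor E2F1 at 0.51. In bulk RNA, fewer dividing cells and less of these transcripts per cell cannot be told apart.

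**Figure D3:**
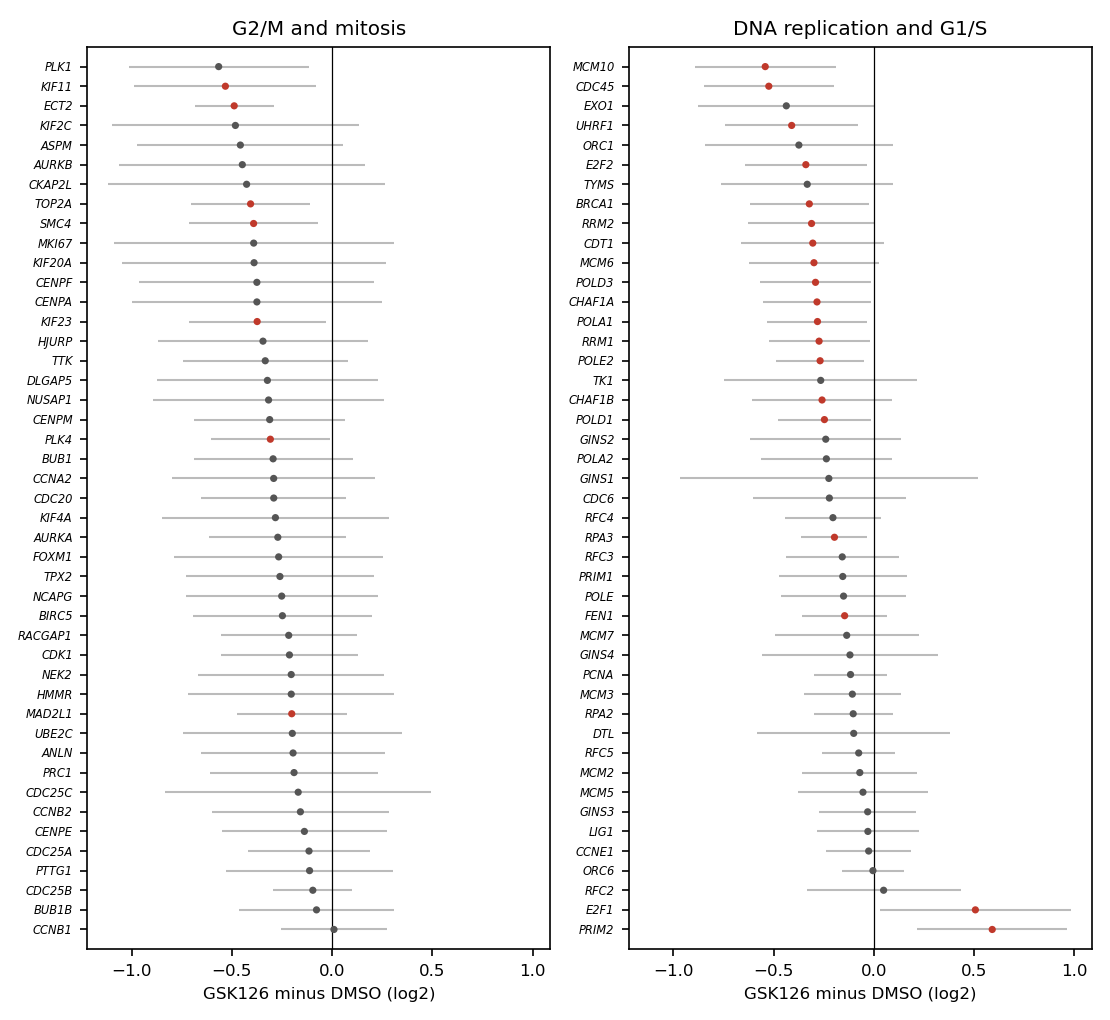
Difference GSK126 minus DMSO (log2) with its 95% interval for the 45 tested genes of the G2/M list and the 45 of the DNA replication list, ordered by size; red marks genes whose groups did not overlap. In the first list 44 and in the second 42 points lie left of 0, and most intervals cross 0.

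Promoters of the mitotic genes are shown because many share 2 short elements, the cell cycle homology region (CHR, TTTGAA) and the CCAAT box. Sequences are from RefSeq (GRCh38.p14), 300-base windows that end 50 bases past the gene's start, 5′ to 3′ on the gene's strand, with matches to either element in capitals on either strand. The ECT2 window is chr3:172750476-172750775 on the plus strand, that of TOP2A chr17:40417847-40418146 on the minus strand, and that of PLK1 chr16:23678639-23678938 on the plus strand.
ECT2: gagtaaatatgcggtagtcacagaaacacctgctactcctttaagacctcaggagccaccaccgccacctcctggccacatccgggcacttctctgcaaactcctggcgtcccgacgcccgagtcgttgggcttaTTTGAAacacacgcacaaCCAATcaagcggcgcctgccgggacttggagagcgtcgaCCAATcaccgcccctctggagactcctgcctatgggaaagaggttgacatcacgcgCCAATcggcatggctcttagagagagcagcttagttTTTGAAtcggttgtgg
TOP2A: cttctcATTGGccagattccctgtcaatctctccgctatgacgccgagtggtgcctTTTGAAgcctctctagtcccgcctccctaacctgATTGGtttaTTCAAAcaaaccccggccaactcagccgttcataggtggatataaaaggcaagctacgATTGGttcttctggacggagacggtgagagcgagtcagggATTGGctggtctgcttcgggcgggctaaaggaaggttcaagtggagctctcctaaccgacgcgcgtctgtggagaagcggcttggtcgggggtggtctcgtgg
PLK1: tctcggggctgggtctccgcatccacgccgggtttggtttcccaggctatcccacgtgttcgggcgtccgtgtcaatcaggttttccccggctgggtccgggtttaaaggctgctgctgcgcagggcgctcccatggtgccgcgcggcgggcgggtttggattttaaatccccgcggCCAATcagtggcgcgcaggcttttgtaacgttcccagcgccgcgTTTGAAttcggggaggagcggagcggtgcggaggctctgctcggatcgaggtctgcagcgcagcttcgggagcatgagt
The ECT2 window held 2 CHR and 3 CCAAT matches, that of TOP2A 2 and 4, and that of PLK1 1 of each.

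Of the 45 G2/M genes tested, 37 had a promoter in the table, and 25 of them (67.6%) held TTTGAA, 28 (75.7%) CCAAT and 20 (54.1%) both. Of the 10155 tested genes with a promoter in the table, 1020 held TTTGAA, 3755 (37.0%) CCAAT and 439 (4.32%) both. The shares over all 27305 promoters given there were 15.4%, 35.7% and 6.08%. The replication genes differed from them: of 40 with a promoter, 1 held TTTGAA, while 17 (42.5%) held the E2F element TTTNGCGC, against 2.98% of the genes tested and 1.83% of all promoters. The 3 elements are different strings, and each was searched on both strands whether or not matches overlapped. Such genes are known to carry these elements, so the shares come with the lists. A match describes letters and is not a binding site.

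TNFSF10 is shown in contrast, with its CpG dinucleotides in capitals, because its promoter holds few of them. The window is chr3:172523381-172523680 on the minus strand.
TNFSF10: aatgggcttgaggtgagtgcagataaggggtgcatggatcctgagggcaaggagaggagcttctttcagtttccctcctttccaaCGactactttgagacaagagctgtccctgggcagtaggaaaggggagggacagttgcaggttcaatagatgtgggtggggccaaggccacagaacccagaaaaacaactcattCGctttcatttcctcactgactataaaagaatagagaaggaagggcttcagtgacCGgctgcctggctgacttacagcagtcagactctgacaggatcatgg
It held 3 CpG, an observed to expected ratio of 0.159. The median was 26 CpG with a ratio of 0.832 over the 10155 tested genes with a promoter in the table, and 14 with 0.58 over all promoters there. Of the 15 genes with the largest positive differences, 13 had a promoter in the table, and their median was 4 CpG with a ratio of 0.292. The 40 higher genes of the added blocked settings, 32 with a promoter, had a median of 12 CpG and a ratio of 0.581. The MME window held 19 CpG. Few of the 15 largest negative differences had a matched promoter, 8 of 15, and their median was 17.5 CpG with a ratio of 0.623. The 23 lower genes of the added blocked settings, 13 with a promoter, had a median of 26 CpG and a ratio of 0.863.

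Developmental regulators known as Polycomb targets lay on both sides of 0. Of 78 listed, 47 were tested, since the rest had no probe above background on 3 arrays, and of these 25 were higher and 22 lower with a median of 0.06. The groups did not overlap in 8 of the 47 with GSK126 higher (17.02%, against 7.51% of all genes) and in 6 with GSK126 lower (12.8%, against 7.7%). At an unadjusted p below 0.05 there were 8 higher and 3 lower members. The T-box factor TBX2 was at 7.47 in DMSO and 8.04 under GSK126, a difference of 0.56 (SE 0.14, limma adjusted p = 0.321), with 0.61, 0.60 and 0.49 in the 3 batches. SOX2, a stem cell factor, was at 10.85 and 11.34, a difference of 0.49 (SE 0.12, limma adjusted p = 0.321), with 0.67 on its second probe. It passed with the block and the variance trend (adjusted p = 0.0412). The HOX genes divided: HOXB7 (0.32) and HOXD8 (0.35) were higher, HOXC9 (−0.64) and HOXC6 (−0.29) lower. The second HOXC6 probe, dimmer, gave 0.20. SOX9 was at −0.59, and the orphan receptor NR2F1 was at 0.54 with overlapping groups.

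Of 40 genes reported as repressed by EZH2 in tumour cells, 24 were tested, 13 higher and 11 lower, with a median of 0.02. TNFSF10 and CNR1 had the smallest p on the positive side. BIK, a pro-apoptotic BCL2 family gene, was at −0.35 and the guidance ligand SLIT2 at −0.34. Cancer-testis genes gave 3 higher and 3 lower of 6 tested (29 listed), with PRAME at 0.10. MAGEC2, above background on 2 DMSO arrays and on 0 under GSK126, was at least 1.19-fold higher in DMSO (limma adjusted p = 0.386). The chromatin lists had medians near 0: H3K27 demethylases and acetylation writers had a median of −0.11 over 12 genes, with the acetyltransferase EP300 at −0.21 and PAXIP1 at −0.25, and SWI/SNF subunits −0.03 over 16, with ARID1A at −0.21 from a DMSO level of 11.07. Histone genes had a median of 0.04 over 24.

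Cell cycle inhibitors and signalling genes gave small values. CDKN1B, which encodes the inhibitor p27, was at 11.09 in DMSO and 10.66 under GSK126, with −0.47, −0.25 and −0.56 in the batches (SE 0.09 for their mean, limma adjusted p = 0.268), and it passed with the block and the variance trend (adjusted p = 0.0434). Its second probe gave −0.20. CDKN1A differed by 0.13 and CDKN2B by −0.16. PIK3IP1, an inhibitor of PI3 kinase, was at 9.60 in DMSO and 9.95 under GSK126, a difference of 0.35 (SE 0.20, limma adjusted p = 0.628), and the batches gave 0.45, 0.60 and 0.00. Of 36 tested PI3K-AKT inhibitors and FOXO targets 21 were higher, with a median of 0.06 and the mitophagy kinase PINK1 at 0.29. Of 24 p53 targets 13 were higher, with a median of 0.04. TP53I3 among them was at 0.34 on the probe used and at −0.025 on its second probe. Of 30 apoptosis regulators 19 were higher, with a median of 0.03 and the BH3 protein BAD at 0.28. The Wnt, Notch and TGF-beta list had a median of −0.01 over 33 genes. NOTCH1 in it was at 12.42 in DMSO and 12.02 under GSK126, a difference of −0.40 (SE 0.10, limma adjusted p = 0.321) seen in all 3 batches, and the Notch target HEY2 was at 0.57 with overlapping groups.

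Most lysosomal and cholesterol synthesis genes had positive differences, and none passed the test. Of 34 tested lysosome and autophagy genes (39 listed), 27 were higher and 7 lower, against 49.3% of all genes above 0, and the median was 0.10 with 0.09, 0.10 and 0.14 in the 3 batches. The groups did not overlap in 10 higher genes (29.4%, against 7.51% of all genes) and in 0 lower ones. GPNMB (0.81), the autophagy protein GABARAPL1 (0.32), the proton pump subunit ATP6V0D1 (0.33), the acid glucosidase GAA (0.31) and the sialidase NEU1 (0.27) were among the 10. GPNMB read 9.75, 9.92 and 9.37 in DMSO and 10.35, 10.82 and 10.31 under GSK126. More higher than lower genes without overlap were not particular to the lysosome list. Ribosomal proteins had 9 higher and 4 lower such genes of 36, and oxidative phosphorylation 7 and 2 of 34. Mesenchymal genes had 3 and 1 of 14, and clear cell carcinoma and epithelial identity markers 4 and 2 of 19. Of 19 cholesterol synthesis genes 15 were higher, with a median of 0.19 and batch medians of 0.07, 0.20 and 0.27. DHCR7, the last enzyme of the pathway, was at 0.33 and IDI1 at 0.37, while HSD17B7 was at −0.30. Without GSK126 replicate 3 that median was 0.085 and without GSK126 replicate 1 it was 0.30. Of 13 fatty acid synthesis genes 8 were higher and 5 lower, with a median of 0.09, or 0.035 with the mean of each gene's probes. The elongase ELOVL6 (0.42, SE 0.09, limma adjusted p = 0.251) and the desaturase SCD (0.40, SE 0.11, limma adjusted p = 0.386) had groups that did not overlap, and both passed with the block and the variance trend (adjusted p = 0.0399 and 0.0368).

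**Figure D4:**
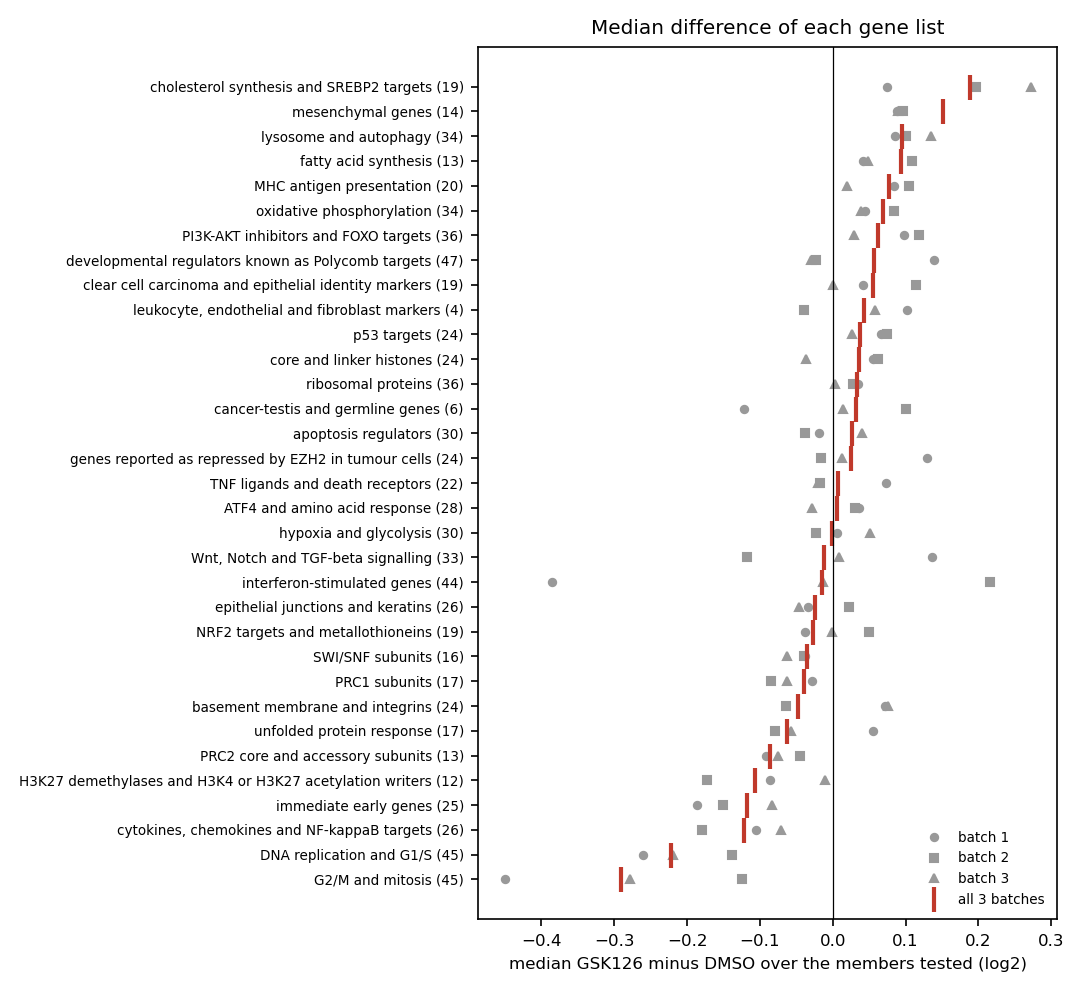
Median difference GSK126 minus DMSO (log2) over the tested members of each of 33 gene lists (number tested in brackets); red bars use all 3 batches and grey symbols each batch alone. The G2/M and replication lists lie lowest, at −0.29 and −0.22, the cholesterol list highest at 0.19, and the interferon list differs most between batches.

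Immediate early genes were lower in 21 of 25 tested, with a median of −0.12 and −0.19, −0.15 and −0.08 in the batches. JUNB, a subunit of the transcription factor AP-1, was at 9.14 in DMSO and 8.72 under GSK126, a difference of −0.42 (SE 0.11, limma adjusted p = 0.344), and IER2 was at −0.32. Of 26 tested cytokine and NF-kappaB genes 18 were lower, with a median of −0.12 and the inhibitor NFKBIA at −0.21, while PTGS2 and TRAF1 stood on the other side. A second TRAF1 probe gave −0.20. The interferon list split by batch: its 44 genes had medians of −0.38, 0.22 and −0.01 in batches 1, 2 and 3, and −0.02 together. Its GTPase GBP2 was at 0.38 and PARP14 at −0.24. Of 20 MHC antigen presentation genes 12 were higher, with a median of 0.08, HLA-C at 0.24 and the chaperone CALR at −0.30. HLA genes are near copies of each other, so a probe's share of each cannot be told apart.

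The remaining lists had medians within 0.15 of 0. Mesenchymal genes gave 11 higher of 14 tested with a median of 0.15. N-cadherin (CDH2) was at 0.29, and TGFBI at −0.40 went the other way. Genes of epithelial junctions and keratins, 26 tested, had a median of −0.02, with CLDN7 at 0.22 and E-cadherin (CDH1) at −0.16. Basement membrane and integrin genes had −0.05 over 24, with COL7A1 at 0.45 and NID2 at −0.43. Clear cell carcinoma and epithelial identity markers had 0.06 over 19. In that list annexin ANXA4 was at 13.34 in DMSO and 13.80 under GSK126, higher by 0.35, 0.40 and 0.65, and the aspartic protease NAPSA was at −0.36. Oxidative phosphorylation gave 25 higher of 34 with a median of 0.07 (COX5B 0.24), and ribosomal proteins 22 of 36 with 0.03 (RPL23 0.23). The unfolded protein response had −0.06 over 17 (SYVN1 −0.18), the ATF4 response 0.01 over 28 (TRIB3 0.30, JDP2 −0.46), hypoxia and glycolysis −0.00 over 30 (SLC2A1 0.37, ANGPTL4 −0.27), and NRF2 targets with metallothioneins −0.03 over 19 (MT1G −0.38). The 4 tested markers of leukocytes, endothelium and fibroblasts had 0.04. With median scaling the medians of the PRC1, SWI/SNF, interferon, hypoxia, NRF2, junction, basement membrane and Wnt lists turned positive, while the signs of the other lists named here held. Means and medians had opposite signs for the TNF ligand, cancer-testis, ATF4, hypoxia, basement membrane and Wnt lists.

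GSK126 was also set against restoration of ARID1A. Both treatments were compared with the same DMSO arrays, so their differences are not independent and are given side by side. Restoration gave 361 genes past the test (2.84%) and 134 past 2-fold, and the spread of all differences (SD over genes) was 0.30 against 0.19 for GSK126. The treatments compared directly gave 317 genes (2.5%). Only the difference of means leaves the DMSO arrays out here. The spread behind its p-values came from the fit to all arrays, DMSO included. Of the 30 genes with the largest GSK126 differences, which were chosen with the GSK126 arrays, 10 passed in that direct comparison, 7 higher under GSK126 and 3 lower, and 14 with batch as a block. The count was 3 without GSK126 replicate 1, 4 without GSK126 replicate 2 and 2 without each batch in turn. PLA2G4A differed from DMSO by 0.86 under GSK126 and by −0.61 under ARID1A, and the treatments differed by 1.47 (limma adjusted p = 0.000965). PTGS2 was at 0.72 and −1.59, a direct difference of 2.31 (limma adjusted p = 0.000795). FGB was at 0.87 and −0.36 (direct adjusted p = 0.0125), SNAP91 at 1.03 and −0.12 (0.0137), KLK5 at −0.99 and 0.29 (0.0181), OLMALINC at 0.86 and 0.10 (0.0264), and HPGD at 0.66 and −0.06 (0.0301), all from limma. TNF was lower in both, with −0.98 and −1.83, and the difference between them was 0.85 (limma adjusted p = 0.0442).

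Other genes had like values under both treatments. GPNMB was at 0.81 under GSK126 and 0.78 under ARID1A, a direct difference of 0.03 that did not pass (limma adjusted p = 0.968). KIF18A was at −0.51 and −0.49, ECT2 at −0.49 and −0.60, and TRIM59 at −0.84 and −0.77, with direct differences of −0.01, 0.11 and −0.07 (limma adjusted p = 0.958, 0.597 and 0.938). A p that misses the threshold does not show that the treatments act alike. TNFSF10 was at 0.96 under GSK126 and 0.02 under ARID1A, a direct difference of 0.95 that missed the threshold (limma adjusted p = 0.0508) and passed with batch as a block (0.0229). MME was at 1.28 and 0.87, ALDH1A1 at 0.99 and 0.54, CEACAM6 at −0.79 and −1.51, and ELOVL6 at 0.42 and 1.71. PIK3IP1 was at 0.35 and 0.91. The G2/M median was −0.29 under GSK126 and −0.18 under ARID1A, and the median of the histone genes 0.04 and 0.78. In the same order the replication list had −0.22 and −0.15, the lysosome list 0.10 and 0.18, and immediate early genes −0.12 and −0.13. The cytokine list had −0.12 and −0.30. Signs differed for the cholesterol list, at 0.19 and −0.02, and for the fatty acid list, at 0.09 and −0.12.

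**Figure D5:**
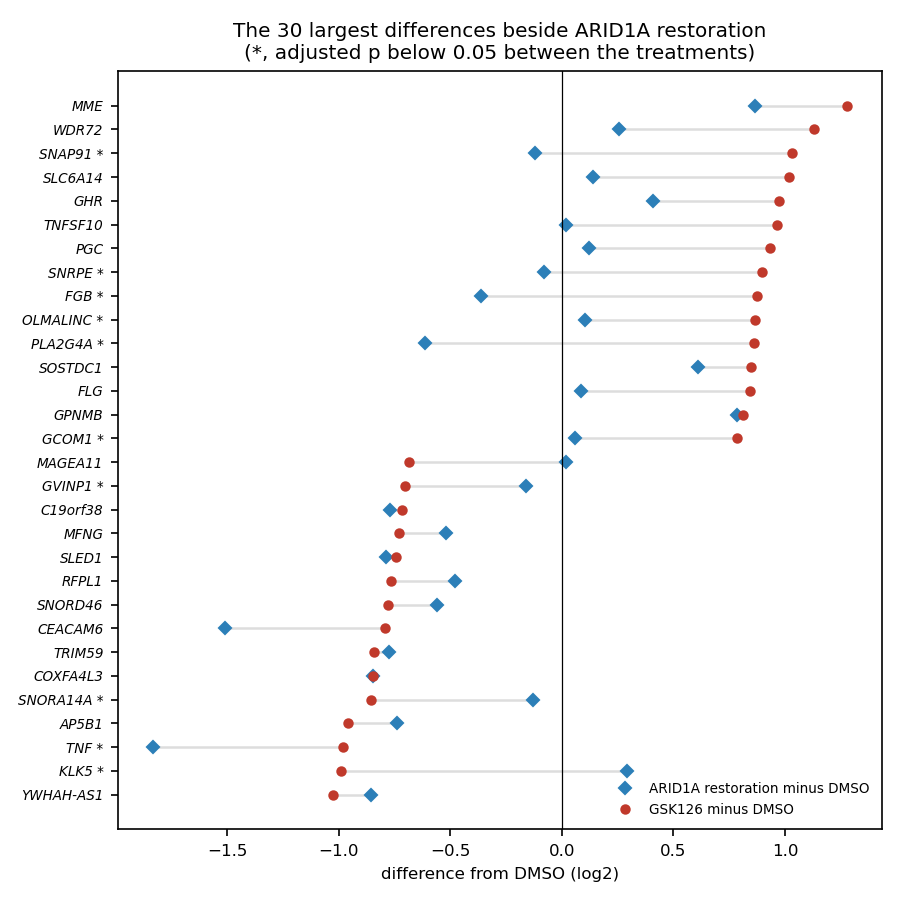
Difference from DMSO (log2) of the 30 genes with the largest GSK126 differences, for GSK126 (red circles) and for ARID1A restoration (blue diamonds), both against the same 3 DMSO arrays. Stars mark the 10 genes whose treatments differed directly (limma adjusted p below 0.05); PLA2G4A, FGB, SNAP91 and KLK5 are among those with opposite signs, GPNMB has nearly the same value. For genes above background in 1 group alone the fitted difference is drawn, which is not the lower bound on their change.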

How the data were processed

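RNA of the 9 samples was biotin-labelled and hybridised to an Illumina array, per the labels' protocols. The deposited table holds a linear intensity per probe, which the submitters' processing notes tie to GenomeStudio (no version given), and a detection p-value that the authors' software gave each intensity. The authors also deposited a value table, with intensity values that were read as quantile normalised without background correction. With limma 3.58.1 in R 4.3.3, neqc corrected background (offset 16), quantile normalised and took log2. Probes with detection p below 0.05 on at least 3 of 9 arrays were kept (23014), and the brightest kept probe with 1 gene symbol stood for a gene (12698 genes). Symbols came from the platform annotation and RefSeq (GRCh38.p14). lmFit and eBayes fitted 3 group means to 9 arrays (6 residual degrees of freedom), two-sided, with Benjamini-Hochberg adjustment over all genes. Every p without another tool named is from limma. Same-batch DMSO and GSK126 arrays deviated together (r from 0.287 to 0.326; other pairs −0.227 to −0.0793), and batch labels pair them; a second fit took batch as a block (4 degrees of freedom).

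Members, gene lists (33) and tests were chosen with earlier results of these data known. Named genes were the 15 largest differences each way with 1 sign in all batches, an unadjusted p below 0.01 and detection on the brighter group's arrays, the 5 each way with the smallest blocked p, genes detected in 1 group alone, up to 4 members a list and a few fixed genes. Of the 176 genes so named, a part with values near 0 is not printed. Other named genes were chosen after their values were seen. The fit was tested on simulated data.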

Additional observations from a re-analysis of the deposited data

How the results depend on the processing

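No setting without the batch block called a gene for GSK126 against DMSO: every alternative run gave 0, among them another offset, the authors' value table, median scaling, other filters, the mean of a gene's probes, a variance trend, the 6 arrays alone and leaving out any replicate or batch. With the replicate block alone the count was 0 (lowest adjusted p 0.0642), and 0 again with median scaling. The alternatives that called genes were chosen after seeing the data. With the replicate block, the authors' value table gave 65 genes, quantile normalisation without background correction 70, and a variance trend 129. The trend and the value table together gave 145, the 6 arrays alone 172 with the value table and 330 with the trend, and an offset of 50 or only genes detected on all 6 arrays 1 each. Leaving out a batch gave from 0 to 6 genes with the value table and from 0 to 41 with the trend. The cause of these gains was not tested.

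Of the 30 largest differences, 10 passed against ARID1A directly. This became 5 with genes detected on all 6 arrays, a setting that leaves out the dim ones and holds only 11 of the 30. The count was 16 with the block and either the value table, quantile normalisation without background correction, offset 50 or the trend with the value table. It ran from 2 to 9 when a replicate or batch was left out without the block, which leaves fewer samples. The lowest counts were 2 without each batch in turn, 3 without GSK126 replicate 1 and 4 without GSK126 replicate 2. Among printed genes the sign turned in 5. POLA1 was at 0.25 with the mean of its probes. SUZ12 was at 0.065 with median scaling, with and without the block. Without 1 replicate SUZ12 ran from −0.030 to 0.025, EZH1 from −0.034 to 0.35, EED from −0.20 to 0.046 and CDKN1A from −0.0063 to 0.29. Without batch 3 SUZ12 was at 0.036, and without batch 1 EZH1 at −0.13. With the block and the value table and without batch 3, SUZ12 was at 0.035, and without batch 1 EZH1 was at −0.052. List medians near 0 turned sign without 1 array: the Polycomb target median was −0.0042 without GSK126 replicate 2, that of EZH2-repressed genes −0.048 without GSK126 replicate 1, and that of MHC genes −0.0069 without DMSO replicate 2. The histone median was −0.083 without DMSO replicate 1 and 0.21 without GSK126 replicate 1. The TNF ligand, NRF2, ATF4, hypoxia, apoptosis, interferon, cancer-testis, basement membrane and Wnt medians also turned without 1 array or batch. With the block and the value table and without batch 1 the G2/M median was −0.17. Signal near background limits the values of genes not detected on all 6 arrays.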

Other observations

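Small nucleolar and Cajal body RNAs, which guide chemical modification of other RNAs, leaned to lower values under GSK126. The group was formed after the values were seen and is given as a description. Of 120 tested, 76 were lower and 44 higher, against 50.7% of all genes below 0, and the groups did not overlap in 18 lower and 3 higher ones, against 7.7% and 7.51% of all genes. Their median difference was −0.08, but the batches gave 0.02, −0.10 and −0.11, and their median DMSO level of 7.90 lay below that of all genes, 10.41. Restoration of ARID1A also gave a negative median, −0.13, but against the same DMSO arrays, so the 2 medians are not independent. SNORD99 (−0.54) and SNORD13 (−0.60) were the 2 that passed in all 3 added blocked settings.

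Genes with the smallest blocked p each way included some not described above. The muscle-associated caveolar protein CAVIN4 was higher by 0.63 (SE 0.10) with 0.70, 0.54 and 0.66 in the batches, and it passed in the 3 added blocked settings. TMEM266, a voltage-sensing membrane protein, was at 0.70 and passed there too, while the co-chaperone DNAJC1 at 0.61 did not. On the negative side ANKEF1 was at −0.66 with overlapping groups, above background on 2 DMSO arrays and 1 GSK126 array, and its adjusted p (limma) went from 0.537 to 0.11 with batch as a block. Its second probe gave 0.21, and the mean of its probes −0.22.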
